A study of Homo sapiens with 4 samples.

Results

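The genes described here act in antigen presentation by major histocompatibility complex (MHC) class I molecules in A549, a human lung adenocarcinoma cell line in long use. The members were 9 genes named by symbol: HLA-B, HLA-C, HLA-E, B2M, TAP1, TAP2, TAPBP, NLRC5 and CIITA. A probe set, the group of probes that reports 1 transcript cluster on the array, counted for a gene where the platform annotation gave it that single symbol. Of the 9 members 8 had such a probe set, 1 each, out of 17687 genes measured in all. No probe set was named for HLA-B, so its level was not analysed here.

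Class I molecules display peptides from the cell's own proteins to cytotoxic T cells. A heavy chain (HLA-B, HLA-C, HLA-E) pairs with the light chain beta-2 microglobulin (B2M) in the endoplasmic reticulum, where the TAP1 and TAP2 transporter delivers peptides cut by the proteasome, and tapasin (TAPBP) holds the empty molecule at the transporter until a peptide fits. NLRC5 is the transactivator of class I genes and CIITA that of class II genes; both lack a DNA-binding domain of their own and work through factors bound at the promoter, and both are induced by interferon gamma. Tumour cells, lung carcinomas among them, can escape T cells by low expression of this pathway.

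RNA was compared between 2 arrays of the line labelled A549-shLDOC1-H2BK120R and 2 arrays of its control, A549-shLDOC1-V. Both lines carried a short hairpin RNA against LDOC1, a gene for a small leucine zipper protein, and grew in medium with puromycin. The first also expressed H2BK120R, a histone H2B that lacks the lysine to which monoubiquitin is attached, and the second carried the vector. Per the submitters' design text, depletion of LDOC1 raised monoubiquitylated H2B and the mutant lowered it, so the comparison asks what differs in depleted cells once that mark is reduced. The arrays did not measure the mark. No cells with an unmutated added H2B or with intact LDOC1 were analysed here, no interferon treatment is named, and the sources used here do not say whether a line is 1 clone. Nothing in the labels says that replicates were separate cultures, so the p-values reflect array-to-array spread, which may be technical only.

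Levels are log2 values as deposited, with array medians between 6.40 and 6.43 and correlations between arrays of 0.9896 to 0.9938. The arrays did not group by line. Vector replicate 2 correlated at 0.993 and 0.9934 with the mutant arrays and at 0.9909 with vector replicate 1. Differences of vector replicate 1 from the other arrays had standard deviations of 0.449 to 0.494, against 0.382 to 0.400 for pairs without it. LDOC1 differed by 0.35 ± 0.23 (H2BK120R minus vector, standard error), which compares 2 depleted lines and does not check the depletion. No detection calls were used, so probe sets for 349 olfactory receptor genes, taken as silent in most lung cells, served as a gauge of low signal. The 5th to 95th percentile of their mean levels ran from 2.38 to 5.17. All 8 epithelial and A549 markers had a mean above 5.17, from EPCAM at 5.58 and KRT19 at 6.69 to KRT8 at 17.15. Of 12 leukocyte markers measured 6 did, the highest of them CD68 at 7.89 and CD79A at 7.02, while PTPRC lay at 4.74. Of the 21448 probe sets tested with limma, 0 (0%) had an adjusted p under 0.05 and 1437 (6.7%) had an unadjusted p under 0.05, 777 of them higher with H2BK120R (3.62%) and 660 lower (3.08%).

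Class I genes share promoter elements, and the letters of some members are shown because they place the elements that interferon signalling and the NLRC5 partner factors are known to read. RefSeq promoter windows (GRCh38.p14) matched 6 of the 9 members, HLA-B included and all but HLA-E, NLRC5 and CIITA. Each printed stretch is the 250 bases before the gene's start, 5′ to 3′ on the gene's strand. Capitals mark exact matches, on either strand, to CCAAT, the core of the Y box, and TGACG, part of the X2 box. They also mark a GAAA repeat, GAAA followed after any 2 bases by GAAA, a strict form of the core of the interferon-stimulated response element. B2M and TAPBP are the members with the largest differences relative to their error in these data, and HLA-C stands for the heavy chains.
B2M (chr15:44711267-44711516, plus strand): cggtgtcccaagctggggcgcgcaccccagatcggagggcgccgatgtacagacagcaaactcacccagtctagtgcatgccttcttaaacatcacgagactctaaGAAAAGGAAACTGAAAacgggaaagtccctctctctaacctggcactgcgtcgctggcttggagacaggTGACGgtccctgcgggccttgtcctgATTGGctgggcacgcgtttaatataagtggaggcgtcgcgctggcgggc
TAPBP (chr6:33314079-33314328, minus strand): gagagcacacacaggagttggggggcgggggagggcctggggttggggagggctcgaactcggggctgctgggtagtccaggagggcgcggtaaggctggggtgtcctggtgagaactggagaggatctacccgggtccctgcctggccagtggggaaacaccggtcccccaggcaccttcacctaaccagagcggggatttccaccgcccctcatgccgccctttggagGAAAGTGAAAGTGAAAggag
HLA-C (chr6:31272093-31272342, minus strand): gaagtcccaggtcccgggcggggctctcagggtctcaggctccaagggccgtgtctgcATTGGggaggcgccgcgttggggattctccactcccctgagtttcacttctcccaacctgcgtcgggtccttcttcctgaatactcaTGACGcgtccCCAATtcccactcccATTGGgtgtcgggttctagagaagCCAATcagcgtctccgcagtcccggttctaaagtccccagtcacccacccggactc

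In the B2M window, the GAAA repeat matched from base 144 to 135 before the start and again, overlapping, from base 138 to 129. TGACG followed at bases 75 to 71 and a reverse CCAAT at bases 49 to 45. The TAPBP window held the GAAA repeat at bases 20 to 11 and 14 to 5, also overlapping, and neither CCAAT nor TGACG. HLA-C had TGACG at bases 105 to 101 and 4 matches to CCAAT, and no exact GAAA repeat in these 250 bases. CCAAT matched at bases 95 to 91 and 56 to 52, and in reverse at bases 192 to 188 and 80 to 76. Which of these 4 is the Y box was not determined. TAP1 had a pair of overlapping GAAA repeats on the other strand in the first of its 2 windows, and TAP2 had 1 match, GAAAGCGAAA, at bases 58 to 49. The GAAA repeat thus occurred in 4 of the 6 member genes with a window and in 4 of their 7 windows. Of 35116 promoter windows of this length, 3.02% held it. CCAAT and TGACG each occurred in 4 of the 6 genes and 4 of the 7 windows as well, against 32% and 21.2% of all windows. The NF-kB core, searched as GGG and CC with any 5 bases between, occurred in 6 of the 6 genes and 7 of the 7 windows. It was held by 54.4% of all windows. A match describes the letters and is not evidence of binding. Only exact letters were searched, so an element with other letters is missed, and the lack of a match does not show that it is absent.

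Among the members, B2M and TAPBP were the 2 whose arrays did not overlap between the groups, and they differed in opposite directions. The groups were likewise free of overlap for 36.5% of all probe sets, with the mutant higher for 18.6% and lower for 17.9%, so 2 of 8 members was not more than the background. Of the 8 members 5 had a difference below 0 and 3 above, with a median of -0.095, where 49.4% of all probe sets were below 0 and their median was 0.0. In limma, 0 of 8 passed an adjusted p of 0.05, with adjusted p-values between 0.722 and 0.985. The same 2 members had an unadjusted p under 0.05, beside 6.7% of all probe sets.

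**Figure D1:**
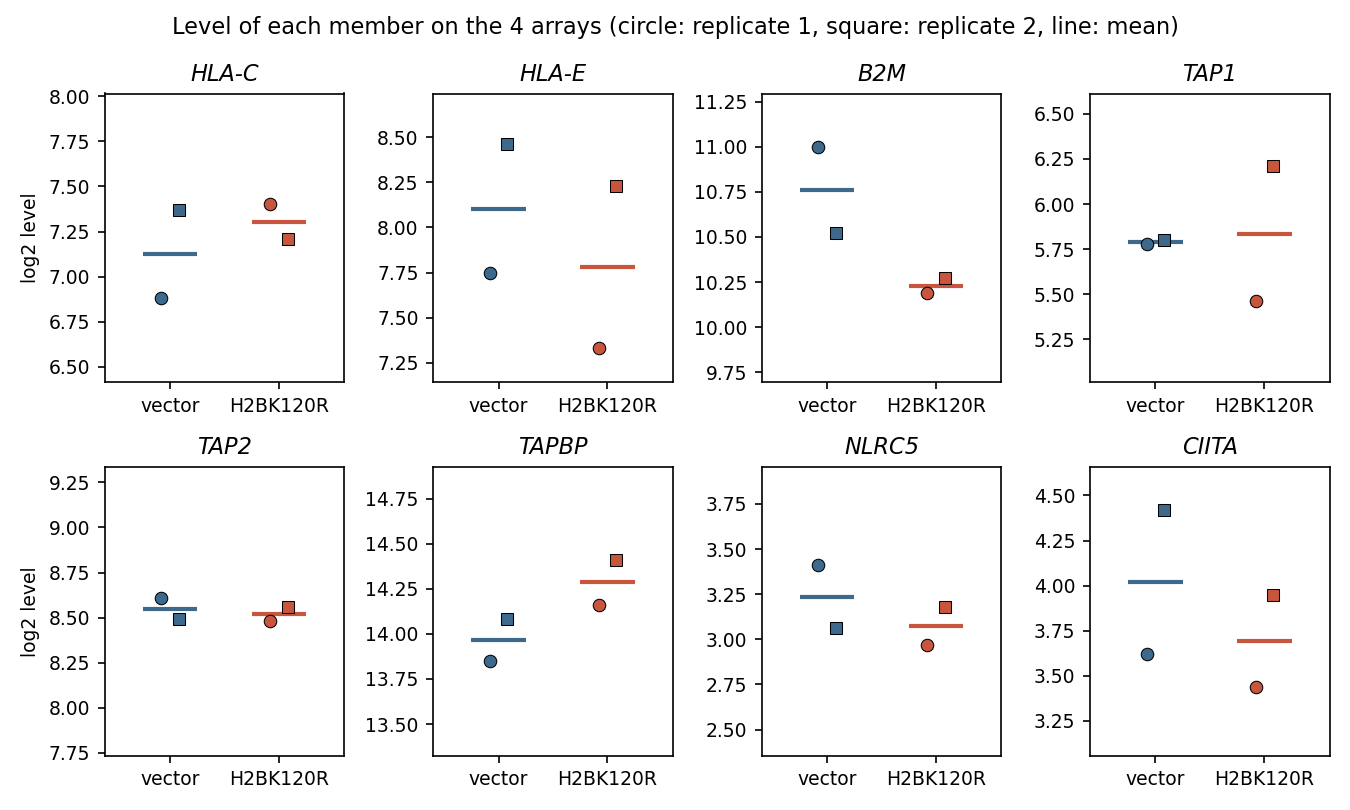
Log2 level (vertical axis, each panel spanning the same width around its own gene) of the 8 measured members in the 2 vector and 2 H2BK120R arrays; circles are replicate 1, squares replicate 2 and lines the mean of 2 arrays. B2M sits at 10.19 and 10.27 with H2BK120R, below both vector arrays, and TAPBP at 14.16 and 14.41, above both, while the groups overlap in the other 6 panels.

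B2M, the light chain that class I heavy chains need for stable display at the cell surface, was measured at 10.19 and 10.27 in the H2BK120R arrays and at 11.00 and 10.52 in the vector arrays. The mutant arrays were close to each other and both were lower, and the vector arrays lay further apart. The means were 10.23 ± 0.06 and 10.76 ± 0.34 (SD, n = 2 each). The difference of -0.53 ± 0.19 (standard error) amounts to a level 0.693 times that of the vector cells, with a 95% confidence interval of 0.519 to 0.924. Its unadjusted limma p was 0.017 and its adjusted p 0.722. The difference was -0.29 without vector replicate 1 and -0.77 without vector replicate 2. Without the variance trend the unadjusted p was 0.0638.

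TAPBP encodes tapasin, which bridges the heavy chain to the transporter and favours peptides that bind tightly. It was at 14.16 and 14.41 with H2BK120R and at 13.85 and 14.08 with the vector. Both mutant arrays were above both vector arrays, by 0.08 at the closest pair. The difference of 0.32 ± 0.13 corresponds to 1.25 times the vector level, with a 95% confidence interval of 1.02 to 1.52. Its unadjusted limma p was 0.0324 and its adjusted p 0.745. Leaving out H2BK120R replicate 2 gave 0.195 and leaving out vector replicate 1 gave 0.205. Its unadjusted p without the variance trend was 0.178.

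The peptide transporter itself gave differences near 0. TAP1, the first of its subunits, was at 5.46 and 6.21 with H2BK120R and at 5.78 and 5.80 with the vector. The vector arrays fell between the mutant arrays, which were 0.75 apart. The difference of 0.045 had a 95% confidence interval from -0.67 to 0.76, which leaves room for a change of either sign, and leaving out a mutant array gave -0.33 (replicate 2 out) or 0.42 (replicate 1 out). TAP2, the partner subunit, was the tightest of the members, at 8.48 and 8.56 against 8.61 and 8.49. All 4 arrays lay within 0.13, and the groups overlapped. Its difference of -0.03 had a 95% confidence interval from -0.48 to 0.42, because limma sets its error partly from other probe sets of that level, and the sign turned when H2BK120R replicate 1 (0.01) or vector replicate 1 (0.03) was left out.

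The heavy chains varied within the groups as much as between them. HLA-C, a classical heavy chain that also binds inhibitory receptors of natural killer cells, was at 7.40 and 7.21 with H2BK120R and at 6.88 and 7.37 with the vector. Its groups overlapped, and vector replicate 1 was the lowest array. The difference was 0.18 ± 0.27 (95% confidence interval -0.41 to 0.77), with a limma adjusted p of 0.913, and it was -0.065 without vector replicate 1. HLA-E presents peptides taken from the leader sequences of other class I heavy chains and is read by the NKG2A receptor. It was at 7.33 and 8.23 with H2BK120R and at 7.75 and 8.46 with the vector. In each group replicate 2 was the higher array, by 0.90 and 0.71, more than the distance between the group means. Its difference of -0.325 ± 0.33 (95% confidence interval -1.05 to 0.40, limma adjusted p = 0.866) turned to 0.125 when H2BK120R replicate 1 was left out and to 0.03 when vector replicate 2 was. Heavy chain genes are close paralogs and highly polymorphic, so a probe set may also read related genes, HLA-B included.

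The transactivators lay at the low end of the array's scale. NLRC5, which drives class I genes, was at 2.97 and 3.18 with H2BK120R and at 3.41 and 3.06 with the vector. All 4 values fell inside the band of the olfactory receptor probe sets, and 36.68% of these had a lower mean. Its difference of -0.16 had a 95% confidence interval from -0.81 to 0.49 and was 0.015 without vector replicate 1. CIITA, the class II transactivator, was at 3.44 and 3.95 with H2BK120R and at 3.62 and 4.42 with the vector, also inside that band on every array. Its difference of -0.325 had a 95% confidence interval from -1.11 to 0.46 and was 0.075 without vector replicate 2. Neither gene was thus measured above this gauge of low signal. The other 6 members had mean levels above the 95th percentile of the olfactory receptor probe sets. TAP1 was the lowest of these, with a mean of 5.81, below the median of 6.41 over all probe sets. Leukocyte markers such as CD79A, at 7.02, also passed this gauge, so passing it does not by itself show expression.

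**Figure D2:**
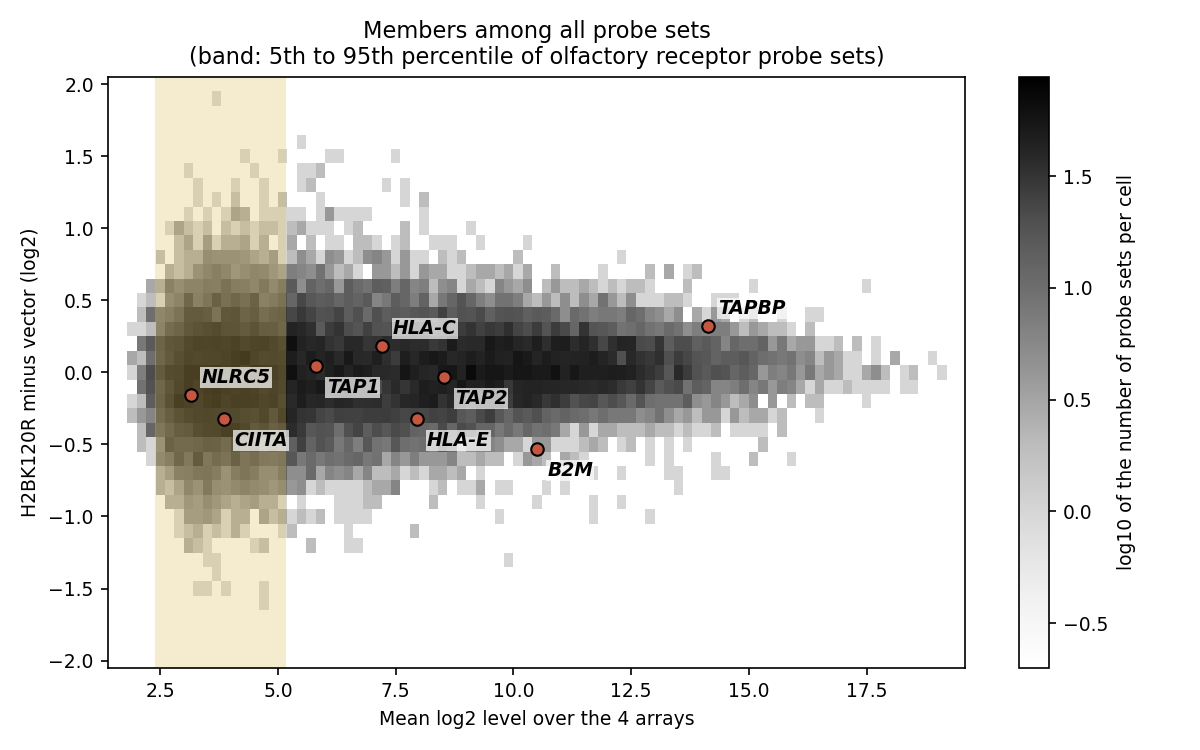
Difference between H2BK120R and vector (log2, vertical axis) against the mean log2 level over the 4 arrays (horizontal axis) for all 21448 probe sets in grey cells, darker where more probe sets lie, with the 8 members as red points. NLRC5 and CIITA sit inside the band of the olfactory receptor probe sets, 2.38 to 5.17, and B2M and TAPBP near the lower and upper edge of the cloud at their level.

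**Figure D3:**
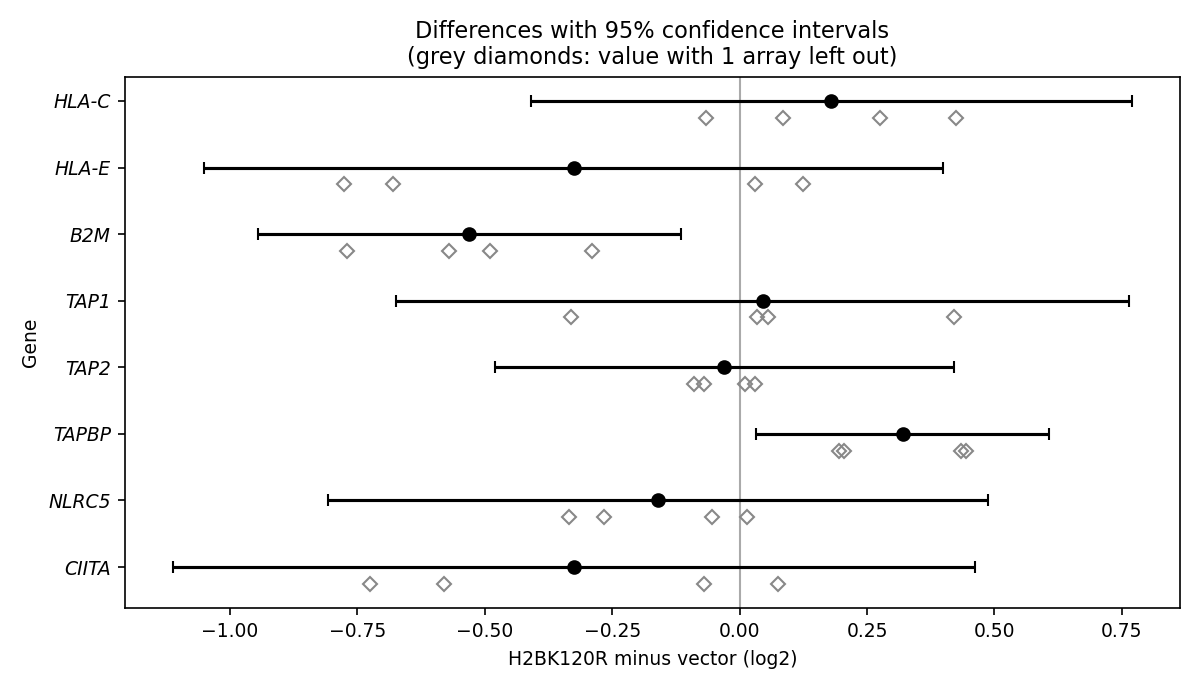
Difference between H2BK120R and vector (log2, horizontal axis) for the 8 measured members, with black points for the 4-array value, bars for limma's 95% confidence interval and grey diamonds for the values with 1 array left out. The intervals of B2M and TAPBP exclude 0 before adjustment, those of the other 6 contain it, and each of these 6 has a diamond on either side of 0.

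The patterns of HLA-E and B2M, the members with the widest range over the arrays among those at or above the median level of 6.41, were compared with those of 9297 other genes at or above that median. The measure was the root mean square distance between the 4 values after each gene's mean was subtracted, over 4 arrays. Nearest to HLA-E were IFI27L2 (distance 0.0737), METTL25 (0.0838) and APOH (0.0855). Nearest to B2M were HSD17B1 (0.0192), SOX12 (0.0249) and PKIG (0.0311). Within a distance of 0.15 lay 20 of the 9297 genes for HLA-E and 249 for B2M. The B2M pattern was thus the more widely shared, and so few arrays do not tell whether near genes are linked.

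The rest of the pathway was read from 8 lists of 67 genes, of which 61 were measured. Of these 38 had a difference below 0 and 23 above, with a median of -0.115. None had an adjusted p under 0.05 in limma. At an unadjusted p under 0.05 there were 3 higher and 3 lower with H2BK120R, or 9.84% beside 6.7% of all probe sets. The groups did not overlap for 10 genes higher and 16 lower of the 61, beside 18.6% and 17.9% of all probe sets. The share of the lists was thus below that of all probe sets for higher and above it for lower, which was not tested. Of the 36 genes of these lists named here and among the further observations, 25 had a difference that moved by over 1.5 times with 1 array left out, and for 8 the sign turned.

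Of the other heavy chain genes, HLA-F and HLA-G were measured, with differences of -0.17 and 0.22. HLA-G, known from the placenta, was at 7.79 and 7.88 with H2BK120R and 7.73 and 7.50 with the vector. The difference of HLA-G was 0.105 without vector replicate 2. HLA-F was at 6.11 and 6.49 against 6.47 in both vector arrays, and its difference was 0.02 without H2BK120R replicate 1. Neither had an unadjusted p under 0.05.

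The 8 genes for loading and trimming peptides had a median difference of 0.02, with 5 above 0 and 3 below. UGGT1, which marks unfinished glycoproteins, class I heavy chains among them, for another round of folding, was the 1 with an unadjusted p under 0.05. It was at 12.60 and 12.70 with H2BK120R and at 12.47 and 12.16 with the vector, a difference of 0.335 ± 0.14 (limma unadjusted p = 0.041, adjusted p = 0.745), and 0.18 without vector replicate 2. That unadjusted p was 0.0775 after quantile normalization and 0.159 without the variance trend. ERAP2, an aminopeptidase that trims peptides in the endoplasmic reticulum, was at 4.19 and 4.42 against 4.72 and 5.12, and TAPBPL, a tapasin relative that edits peptides away from the transporter, at 5.93 and 5.90 against 6.35 and 6.36. Their differences of -0.615 and -0.44 had unadjusted p-values of 0.077 and 0.139, and ERAP2 lay inside the olfactory receptor band on every array. PDIA3, the disulfide isomerase bound to tapasin, differed by 0.155. The groups of the chaperones CALR and CANX overlapped, with differences of 0.065 and 0.015, and that of CANX was -0.031 after quantile normalization.

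Among the 6 measured genes of the immunoproteasome and the PA28 activator, 3 differences were above 0 and 3 below, with a median of -0.0475. POMP, a chaperone of proteasome assembly, was at 9.50 and 9.81 with H2BK120R and at 10.55 and 9.85 with the vector, so the groups were separated by 0.04 and vector replicate 1 stood apart. Its difference of -0.545 (limma unadjusted p = 0.0406, adjusted p = 0.745) was -0.195 without that array and -0.895 without vector replicate 2. Its unadjusted p was 0.0547 with the replicate number as a block and 0.109 without the variance trend. PSME1, a PA28 subunit, was at 7.02 in both mutant arrays against 7.42 and 7.24. The catalytic subunit PSMB9, encoded beside TAP1, differed by -0.125, and PSME3 by 0.125, or -0.13 without vector replicate 1. The subunits that PSMB8, PSMB9 and PSMB10 replace, PSMB5, PSMB6 and PSMB7, had differences of -0.14, -0.13 and -0.24. Those of PSMB5 and PSMB6 were 0.025 and 0.075 without vector replicate 2.

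The factors that bind class I promoters split by gene. Of 11 measured, 3 differences were above 0 and 8 below, with a median of -0.145, and 1 gene in each direction had an unadjusted p under 0.05. RELA, the NF-kB subunit p65, was at 12.27 and 12.48 with H2BK120R and at 11.87 and 12.10 with the vector, a difference of 0.39 ± 0.15 (limma unadjusted p = 0.0224, adjusted p = 0.739). IRF2, an interferon regulatory factor, was at 8.20 and 8.02 against 8.56 and 8.70, a difference of -0.52 ± 0.21 (limma unadjusted p = 0.0325, adjusted p = 0.745). The subunits of NF-Y, which reads CCAAT, differed in sign, NFYA by 0.415, NFYB by -0.34 and NFYC by -0.145. For NFYA and NFYB the groups did not overlap, as for 36.5% of all probe sets, and the limma unadjusted p was above 0.05. The RFX subunits RFX5, RFXANK and RFXAP, partners of NLRC5 and CIITA at the X box, differed by -0.205, -0.28 and -0.135. With 1 array left out these values ranged from -0.335 to -0.075, from -0.625 to 0.065 and from -0.57 to 0.30, so that RFXANK turned without H2BK120R replicate 1 and RFXAP without vector replicate 2. Without the variance trend the unadjusted p of RELA was 0.108.

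For interferon gamma signalling, 4 of 6 measured genes had a difference above 0 and the median was 0.055. PTPN2, a phosphatase that dampens JAK and STAT signalling, was at 10.03 and 9.97 with H2BK120R and at 9.46 and 9.69 with the vector, a difference of 0.425 ± 0.18 (limma unadjusted p = 0.0368, adjusted p = 0.745). Its unadjusted p was 0.0515 after quantile normalization and 0.0754 without the variance trend. JAK2, one of the kinases on the receptor, was at 7.13 and 7.24 against 6.76 and 6.68 (difference 0.465, unadjusted p = 0.0934). The receptor chains IFNGR1 and IFNGR2 differed by -0.29 and 0.03, and SOCS1, a feedback inhibitor, by -0.26 at levels inside the olfactory receptor band. With 1 array left out IFNGR1 ranged from -0.475 to -0.105, IFNGR2 from -0.155 (without vector replicate 1) to 0.215 and SOCS1 from -0.515 to -0.005.

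The genes listed for the class II pathway lay mostly at low signal, where 2 of 12 measured had a mean above the olfactory receptor 95th percentile. Those were CTSS, a lysosomal protease, with a difference of 0.285, and HLA-DQA1, an alpha chain, with 0.435. HLA-DRA, the alpha chain of HLA-DR, was between 2.08 and 2.89, and CD74, the invariant chain that guards the groove, between 4.75 and 5.14. HLA-DMA, which exchanges peptides on class II molecules, had the largest difference of all lists, -1.125 ± 0.34 (limma unadjusted p = 0.0072, adjusted p = 0.690). It was at 4.77 and 4.05 with H2BK120R and at 5.38 and 5.69 with the vector. The mutant arrays lay within the olfactory receptor band and the vector arrays just above it, and the difference was -0.765 without H2BK120R replicate 2. The list median was -0.1225, with 9 of 12 below 0. Markers of leukocytes, which carry class II molecules, had a mean level over 12 genes of 5.08 and 5.07 with H2BK120R and of 4.99 and 4.88 with the vector, with 9 differences above 0, and their part in these values was not tested.

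**Figure D4:**
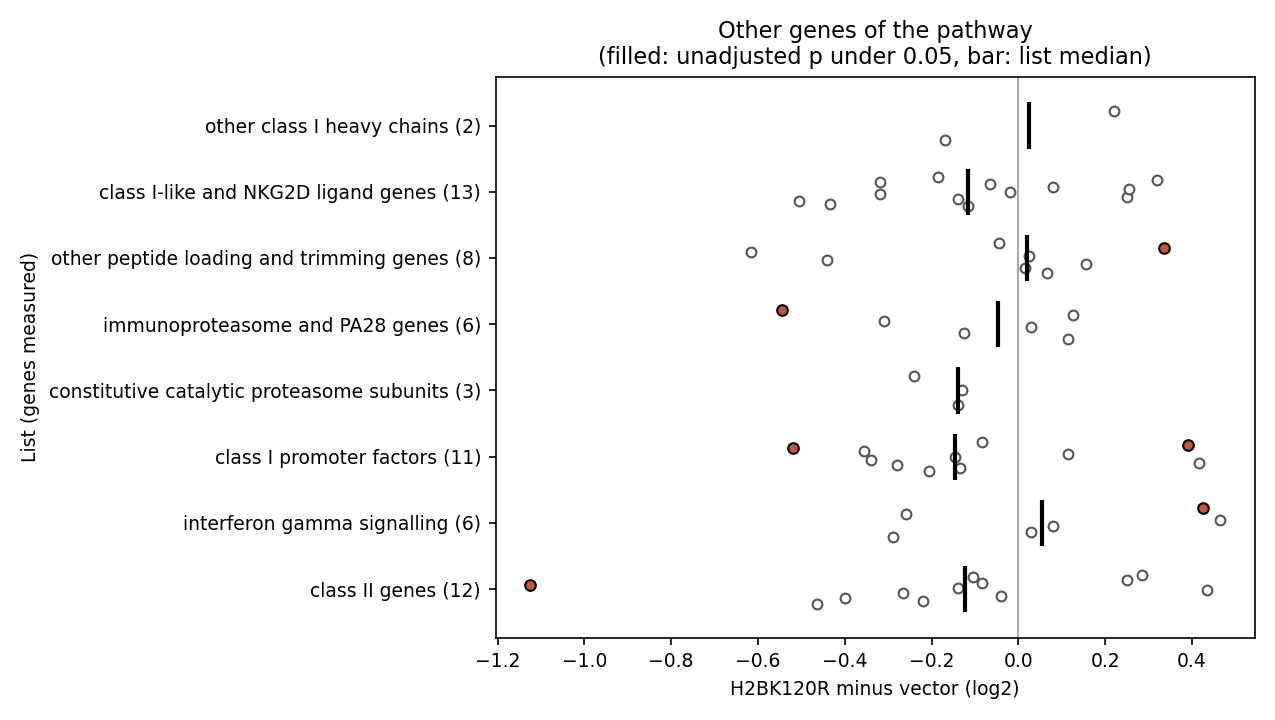
Difference between H2BK120R and vector (log2, horizontal axis) for the 61 other pathway genes measured, 1 point per gene and 1 row per list, with the number measured in brackets; filled points have an unadjusted limma p under 0.05 and bars are list medians. The 6 filled points are UGGT1, RELA and PTPN2 on the right and POMP, IRF2 and HLA-DMA on the left, and the medians lie between -0.145 and 0.055.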

How the data were processed

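Total RNA of 4 A549 samples, 2 per group by their titles, was profiled on a whole-transcript array (labelled with biotin, per the labels' protocols). The deposited values are log2 levels, normalized by the authors between arrays; base and normalization are inferred from the range and near-equal medians. The submitters' processing notes name MAS5, with no version; the sources used here give no background correction or probe summary.

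Of 21448 probe sets 17709 had 1 symbol in GEO's platform annotation; 22 shared a gene with a brighter one, which stood for it. Symbols of the 8 members measured matched RefSeq (GRCh38.p14) by gene ID. The groups were compared in R 4.3.3 with limma 3.58.1 (lmFit and trended eBayes, two-sided, no covariate). Benjamini-Hochberg adjustment ran over all probe sets, and the fit had 2 residual and 8.95 prior degrees of freedom. The fit was also run on simulated data, whose nonzero shifts were all larger than any member's difference. That run does not gauge how well differences of the members' size are found. With 2 arrays a group, an exact permutation test of 1 gene cannot go below 0.333. The number of arrays limits the precision. Members and lists were chosen with earlier results of these data known. All members, up to 4 genes of each list with the smallest p, and LDOC1 were to be named; CALR, CANX, NFYC, the RFX genes, IFNGR2, CD74 and the markers were added after their values were seen. Alternatives were 2 normalizations, filters on the dimmest 25% or 50%, only probe sets with 1 symbol, 2 variance models, the replicate number as a block, and each array left out. Figures used Python 3.11.15 and matplotlib 3.10.9.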

Additional observations from a re-analysis of the deposited data

How the results depend on the processing

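Under each of the 12 alternatives 0 probe sets and 0 members had an adjusted p under 0.05 in limma. The unadjusted p was under 0.05 for 1437 probe sets as reported, 903 without the dimmest 50%, where fewer were tested, and 495 to 2427 with 1 array left out. Members at that level numbered 2, and 0 with eBayes without the trend and 0 to 2 with 1 array left out. Members below 0 numbered 5, and 3 without the dimmest 25% or 50%, where dim members drop out, and 3 to 6 with 1 array left out. With 1 array out, the array that stands alone is taken to vary like those of the other group. The differences of B2M (-0.77 to -0.29) and TAPBP (0.195 to 0.445) kept their sign with 1 array out. Those of HLA-C (-0.065 to 0.425), HLA-E (-0.775 to 0.125), TAP1 (-0.33 to 0.42), TAP2 (-0.09 to 0.03), NLRC5 (-0.335 to 0.015) and CIITA (-0.725 to 0.075) did not, nor those of HLA-F (-0.36 to 0.02), PSME3 (-0.13 to 0.38), PSMB5 (-0.305 to 0.025), PSMB6 (-0.335 to 0.075), CANX (-0.04 to 0.07), RFXANK (-0.625 to 0.065), RFXAP (-0.57 to 0.30) and IFNGR2 (-0.155 to 0.215). After quantile normalization CANX was -0.031 and IFNGR2 -0.015. An unadjusted p under 0.05 was gained by NFYB in that setting and by ERAP2 and JAK2 without the trend. Among members, no normalization, filter, variance model or block reversed a sign. For the rest the cause was not tested.

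Same-numbered arrays deviated together only weakly. Over all probe sets, the replicate 1 minus replicate 2 differences of the 2 groups had a correlation of 0.141. The labels do not tie the numbers to a shared culture. With the replicate block, the unadjusted p was 0.0178 for B2M and 0.00796 for TAPBP, adjusted 0.543 and 0.520, and POMP lost (0.0547) and CD1D gained (0.037) an unadjusted p under 0.05. In all, 1846 probe sets (8.61%) had an unadjusted p under 0.05. A second probe set per member was planned and not run, since each has 1. The change of pseudocount was not run, since the values are log2.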

Other observations

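Ligands and relatives of class I molecules that other lymphocytes read were also on the arrays. All 13 listed genes were measured, 9 with a difference below 0 and 4 above, with a median of -0.115, and 0 had an unadjusted p under 0.05 in limma. CD1D, which presents lipids to natural killer T cells, was at 8.12 and 7.83 with H2BK120R and at 8.73 and 8.23 with the vector. Its groups did not overlap, and its difference of -0.505 had an unadjusted p of 0.0634 and an adjusted p of 0.746. It was -0.255 without vector replicate 1 and -0.755 without vector replicate 2, and with the replicate number as a block its unadjusted p was 0.037, the 1 call of this list in that fit. MR1, which presents vitamin B metabolites to mucosal-associated T cells, was at 6.32 and 6.82 against 7.07 and 6.94, a difference of -0.435, or -0.185 without H2BK120R replicate 1. MICA, a stress-induced ligand of the NKG2D receptor, differed by -0.32 with overlapping groups, and RAET1G, a ligand of the same receptor, by 0.32 at levels inside the olfactory receptor band. Without vector replicate 1 these values were -0.06 and 0.075.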
